A study of Mus musculus with 4 samples.

Results

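The TRAF adaptors and the cellular inhibitors of apoptosis (cIAPs) were described in regulatory T-cells (Tregs) that did or did not divide in culture. The members were Traf1 to Traf6, Birc2, Birc3, Map3k14 and Tank, chosen by gene name as the proteins that work together under receptors of the tumor necrosis factor (TNF) receptor family. Of these 10 genes, 9 had a probe set that the platform annotation gave to that gene alone, out of 22180 genes measured in all, and each of the 9 rested on 1 probe set. Traf3 was not analysed here, and 1 more probe set, shared by Traf5 and Rcor3, was left out.

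TRAF proteins are adaptors that bind the tails of TNF receptors such as OX40, and several of them, together with the cIAPs, are ubiquitin ligases. At rest, a complex of TRAF2, TRAF3 and the cIAPs keeps the NF-κB-inducing kinase NIK (Map3k14) unstable. Recruitment of these proteins to a receptor opens the canonical NF-κB pathway through TAK1 and the IκB kinases, and the non-canonical pathway through NIK.

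Tregs of mice were cultured with bone marrow-derived dendritic cells grown with GM-CSF (G-BMDCs) for 5 days and then sorted by dilution of a division dye. The series title names NOD mice, a strain prone to autoimmune diabetes, while the methods list several strains and do not say which gave these cells. Proliferating Tregs (2 arrays) were compared with resting Tregs (2 arrays) that had been in the same kind of culture, so both groups had met G-BMDCs and no array held uncultured Tregs. Nothing in the labels says that the 2 arrays of a group came from separate mice or cultures, so a p-value here is set against array-to-array spread that may be technical.

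The values were log2 expression values as deposited, and a difference of 1 on this scale is a 2-fold change. A gene was called where limma gave an adjusted p under 0.05 over all genes. By this rule proliferating Tregs had higher levels of 25.6% and lower levels of 34.5% of all genes, and the median log2 fold change of all genes was -0.17. The arrays differed in shape, since the SD over genes was 1.43 and 1.44 in proliferating Tregs and 1.13 in both resting arrays. Marker genes of other cells moved with the groups. The summed level of 9 B-cell markers was 9.23 and 9.30 in proliferating Tregs, against 11.90 and 11.99 in resting Tregs, with 9 of 9 lower. All 10 neutrophil markers were lower as well (summed level 9.46 and 9.32 in proliferating Tregs, 13.47 and 13.62 in resting Tregs), while 8 of 15 dendritic and myeloid markers were higher and 3 lower (summed level 12.84 and 12.71 in proliferating Tregs, 11.61 and 11.69 in resting Tregs). Of the genes that mark Tregs, 6 of 6 were higher in proliferating Tregs, with a summed level of 12.52 and 12.56, against 10.18 and 10.14 in resting Tregs. In such bulk samples, fewer cells of a type and less RNA per cell cannot be told apart, and the part of other cells in the results below was not tested.

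The start regions of 3 members are shown first, since Birc2 and Tank had the largest fitted increases among the members and Birc3, the neighbor of Birc2, did not pass the test. They were taken from the RefSeq promoters of GRCm38.p6, and are written 5′ to 3′ on the strand of the gene. Capitals mark a match to the κB consensus, the sequence that NF-κB dimers bind, or to the cAMP response element TGACGTCA, the sequence that CREB proteins bind. The first line is the region upstream of the annotated Birc2 gene (chr9:7837132-7837307, minus strand), the second a short stretch just inside the gene that holds its match (chr9:7837074-7837103), and the third the region upstream of Birc3 (chr9:7873206-7873420, minus strand). RefSeq gives 4 starts of Tank in 2 regions, and the last lines lie upstream of the first start in each (chr2:61578307-61578556 and chr2:61592847-61593096, plus strand).
Birc2 upstream: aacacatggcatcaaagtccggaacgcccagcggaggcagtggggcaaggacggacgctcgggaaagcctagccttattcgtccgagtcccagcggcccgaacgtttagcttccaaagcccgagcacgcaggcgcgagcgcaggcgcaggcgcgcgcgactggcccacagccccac
Birc2 match: tgcgcgtctgcTGACGTCAcctcaacggcc
Birc3 upstream: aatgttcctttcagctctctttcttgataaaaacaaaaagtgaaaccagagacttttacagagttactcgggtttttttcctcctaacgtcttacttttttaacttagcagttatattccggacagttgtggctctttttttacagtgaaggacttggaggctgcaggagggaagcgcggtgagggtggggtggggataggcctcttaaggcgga
Tank first region: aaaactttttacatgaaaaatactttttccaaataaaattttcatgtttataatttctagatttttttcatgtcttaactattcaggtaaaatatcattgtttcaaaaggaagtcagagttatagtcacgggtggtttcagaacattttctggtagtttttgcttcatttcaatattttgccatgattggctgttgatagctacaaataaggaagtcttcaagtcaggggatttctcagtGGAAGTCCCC
Tank second region: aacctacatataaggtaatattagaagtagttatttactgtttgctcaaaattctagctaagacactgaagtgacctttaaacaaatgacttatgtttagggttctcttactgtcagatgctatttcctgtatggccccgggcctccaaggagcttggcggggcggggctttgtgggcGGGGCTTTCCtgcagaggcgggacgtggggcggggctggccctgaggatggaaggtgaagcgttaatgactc

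In the 250 bases before a start, searched on both strands, the κB consensus was matched at Tank alone among the 9 members, where it lay 10 and 39 bases before the starts of the first region and 72 and 127 bases before those of the second, and 7.25% of all 32851 promoters held it. The element TGACGTCA was matched at Birc2 alone, beginning 35 bases before a start, and was in 1.55% of all promoters. Tank and Birc2 had several starts and so more bases to search than the other members, while these shares are per promoter. Other motifs were searched too. STAT and E-box motifs were matched at no member. A GC box (32.7% of all promoters) or CCAAT box (33.8%) was matched at every member but Traf2 and Birc3. Of the 250 bases, G and C made up 68.4% at that Birc2 start and 43.6% at Birc3, against a median of 52.4% over all promoters. A match is a description of the letters and not of a bound site.

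On the deposited scale, 5 of the 9 members were higher in proliferating Tregs (Traf1, Traf4, Traf6, Birc2 and Tank), against 25.6% of all genes, and 1 of 9 was lower (Map3k14), against 34.5%. Only Birc2 among the 5 kept its sign with arrays centred on Cd3 genes. Traf2, Traf5 and Birc3 did not pass the test. The median log2 fold change of the members was 0.69, beside -0.17 for all genes, and 7 of 9 lay above the median of all genes. A limit for low levels was taken as the 95th percentile of 285 vomeronasal receptor genes, which T-cells are not known to use (6.16 and 6.38 in proliferating Tregs, 6.63 and 6.73 in resting Tregs). Traf6, Birc2 and Tank were above it on both proliferating arrays and on neither resting array. Their fitted changes on the deposited scale may thus understate the difference. The median of the vomeronasal genes was 4.40 and 4.44 in resting Tregs, so Traf6, Birc2 and Tank are not shown to lie at background there. The fold of the proliferating mean over the limit of the resting arrays is given for each, on that scale alone. The limit comes from other probes, so this fold does not bound the change. Traf1, Traf2, Traf4, Traf5 and Birc3 were above the limit on all 4 arrays. The plot of the members by array shows each value, and the plot of the changes gives the fitted differences.

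**Figure D1:**
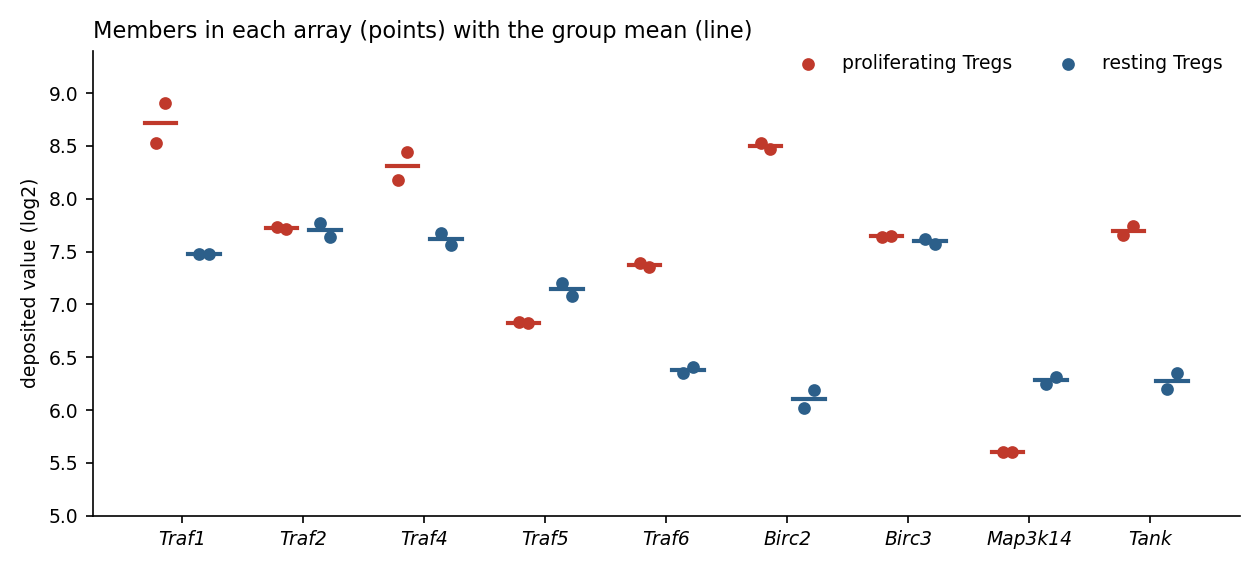
Deposited log2 value (vertical axis) of each member in the 2 arrays of proliferating Tregs (red points, left in each pair) and the 2 arrays of resting Tregs (blue points, right), with lines at the group means. The groups lie far apart for Birc2, at 8.53 and 8.47 in proliferating Tregs and 6.02 and 6.19 in resting Tregs, and overlap for Traf2. Heights of different genes are from different probes and are not comparable.

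Traf1 was higher in proliferating Tregs on the deposited scale. TRAF1 has no RING domain of its own, binds TRAF2, and is itself a known target of NF-κB. Traf1 (chr2:34941750-34961812 in GRCm38.p6, as for the other genes) was at 8.53 and 8.90 in proliferating Tregs, against 7.48 and 7.47 in resting Tregs. Both proliferating arrays were above both resting arrays, and they differed from each other by more than the resting arrays did. The log2 fold change was 1.24 (SE 0.16, limma adjusted p = 5.12e-04), or 2.36-fold.

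Traf2 encodes the adaptor that brings the cIAPs to receptors such as OX40 and TNFR2. Its levels were 7.73 and 7.71 in proliferating Tregs and 7.77 and 7.64 in resting Tregs, and the groups overlapped. The log2 fold change was 0.02, with a 95% interval of -0.28 to 0.32 (limma adjusted p = 0.904), so no direction was resolved on the deposited scale. Traf2 passed as lower under quantile normalization (-0.61, limma adjusted p = 0.0104), housekeeping centring (-1.27) and Cd3 centring (-1.95). The median of all genes was -0.06, -1.46 and -2.14 under these scalings.

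Traf5, whose product binds OX40, CD27 and CD30 much as TRAF2 does, was at 6.83 in both proliferating arrays, against 7.21 and 7.08 in resting Tregs. Both proliferating arrays were lower, but the difference of -0.31 (95% interval -0.61 to -0.01) did not pass after adjustment over all genes (limma adjusted p = 0.0670). It passed with a limma adjusted p of 0.0437 under a trended prior. It also passed under quantile normalization (-0.49) and with arrays centred on housekeeping genes (-1.60) or Cd3 genes (-2.28). The median of all genes was -0.06, -1.46 and -2.14 under the latter scalings.

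Traf6 is the adaptor of the IL-1 and Toll-like receptors and of CD40 and RANK, and its product makes the ubiquitin chains that activate TAK1. It was at 7.39 and 7.35 in proliferating Tregs, against 6.35 and 6.41 in resting Tregs, with no overlap. The fitted difference was 0.99 (SE 0.13, limma adjusted p = 5.16e-04). On the deposited scale Traf6 in proliferating Tregs lay 1.61-fold above the low-level limit of the resting arrays given above. Its difference was -0.30 under housekeeping centring and -0.98 under Cd3 centring. Traf4, the family member with the least clear link to TNF receptors, was at 8.18 and 8.44 in proliferating Tregs, against 7.67 and 7.56 in resting Tregs. Both proliferating arrays were higher, and the difference was 0.69 (SE 0.14, limma adjusted p = 0.00500), or 1.62-fold. Without resting replicate 2 the difference in Traf4 was 0.64 and no longer passed (adjusted p = 0.0537).

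The cIAP genes are neighbors on chromosome 9, separated by 10336 bases, and both encode RING ubiquitin ligases that bind TRAF2. Birc2 (gene 11797, chr9:7818226-7837131) was at 8.53 and 8.47 in proliferating Tregs, against 6.02 and 6.19 in resting Tregs. The fitted log2 fold change was 2.39 (SE 0.13, limma adjusted p = 1.63e-05). On the deposited scale Birc2 in proliferating Tregs lay 3.53-fold above the low-level limit of the resting arrays. Its log2 fold change was 1.10 under housekeeping centring and 0.42 under Cd3 centring. Birc3 (gene 11796, chr9:7847468-7873205) was at 7.64 and 7.65 in proliferating Tregs and 7.62 and 7.57 in resting Tregs. The proliferating values lay just above the resting ones, by 0.05 (95% interval -0.24 to 0.34, limma adjusted p = 0.754). Birc3 passed as lower under quantile normalization (-0.52, limma adjusted p = 0.0142), housekeeping centring (-1.24) and Cd3 centring (-1.92). The median of all genes was -0.06, -1.46 and -2.14 under these scalings.

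The cIAP pair was also set against each other within each array, which does not depend on how the arrays were centred. The Birc2 value minus the Birc3 value was 0.89 and 0.82 in proliferating Tregs, against -1.60 and -1.38 in resting Tregs, a shift of 2.35. It was positive on both proliferating arrays and negative on both resting arrays. Since it compares different probes, only the shift is a measurement, and it shows unequal change. RefSeq lists the names of these genes as synonyms of each other, so the assignment here rests on the gene identifiers.

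Map3k14 encodes NIK, the kinase whose protein level the complex of TRAFs and cIAPs controls. It was at 5.60 in both proliferating arrays, against 6.25 and 6.31 in resting Tregs, without overlap. The log2 fold change was -0.68 (SE 0.13, limma adjusted p = 0.00287). On all 4 arrays Map3k14 lay under the low-level limit, so no fold is given, and 19.3% of the vomeronasal receptor genes were called lower. Of the vomeronasal receptor genes, 8.77% had a lower log2 fold change than Map3k14.

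Tank encodes an adaptor that binds TRAFs and the kinases TBK1 and IKKε, and that is known as a brake on NF-κB signaling downstream of TRAF6. It was at 7.65 and 7.74 in proliferating Tregs, against 6.20 and 6.35 in resting Tregs, and the groups were well apart. The fitted log2 fold change was 1.42 (SE 0.13, limma adjusted p = 1.16e-04). On the deposited scale Tank in proliferating Tregs lay 2.02-fold above the low-level limit of the resting arrays. Its log2 fold change was 0.13 under housekeeping centring and -0.55 under Cd3 centring.

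**Figure D2:**
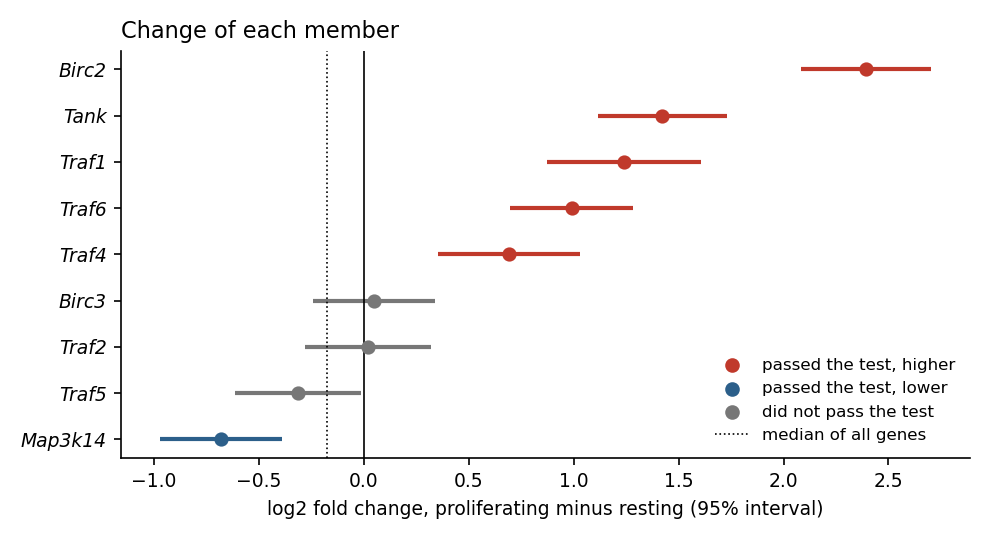
Log2 fold change of each member, proliferating minus resting Tregs (horizontal axis), with the 95% interval of limma as a bar. The dotted line is the median of all genes (-0.17). Birc2 stands highest at 2.39 and Map3k14 lowest at -0.68. The intervals of Birc3 and Traf2 span 0, and that of Traf5 runs from -0.61 to -0.01.

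No order of the members by size of change is drawn. On the deposited scale the changes of Birc2, Tank and Traf6 may be understated, and the intervals of Tank, Traf1 and Traf6 overlapped. Traf1 minus Traf2 within an array was 0.79 and 1.19 in proliferating Tregs, against -0.30 and -0.16 in resting Tregs, a shift of 1.22. Traf5 minus Traf2 was -0.91 and -0.89 in proliferating Tregs, against -0.57 and -0.56 in resting Tregs, a shift of -0.33 that turned to 0.12 under quantile normalization.

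The direction of most members depended on what the arrays were scaled to. On the deposited values 9 of 10 housekeeping genes, and all 3 measured genes of the T-cell receptor complex, were also higher in proliferating Tregs. With each array centred on housekeeping genes, the median of all genes moved to -1.46, 5.17% of genes were higher and 86.3% lower, and Birc2 was the only member called higher, at 1.10. With arrays centred on Cd3d, Cd3e and Cd3g, components of the T-cell receptor complex, the median of all genes was -2.14 and Birc2 was again the only one, at 0.42 (limma adjusted p = 0.0163). Traf1, Traf4 and Traf6 then had negative values under both centrings (Traf1 -0.05 and -0.73, Traf4 -0.59 and -1.28, Traf6 -0.30 and -0.98), and Tank was at 0.13 and -0.55. Under quantile normalization Traf4 was at -0.04 and the other 4 stayed above 0. The housekeeping mean of 1.29 was raised by Hprt (3.52) and Pgk1 (3.43), and the median of these 10 genes was 0.90, which lies below the deposited-scale changes of Birc2, Tank, Traf1 and Traf6 and above that of Traf4.

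**Figure D3:**
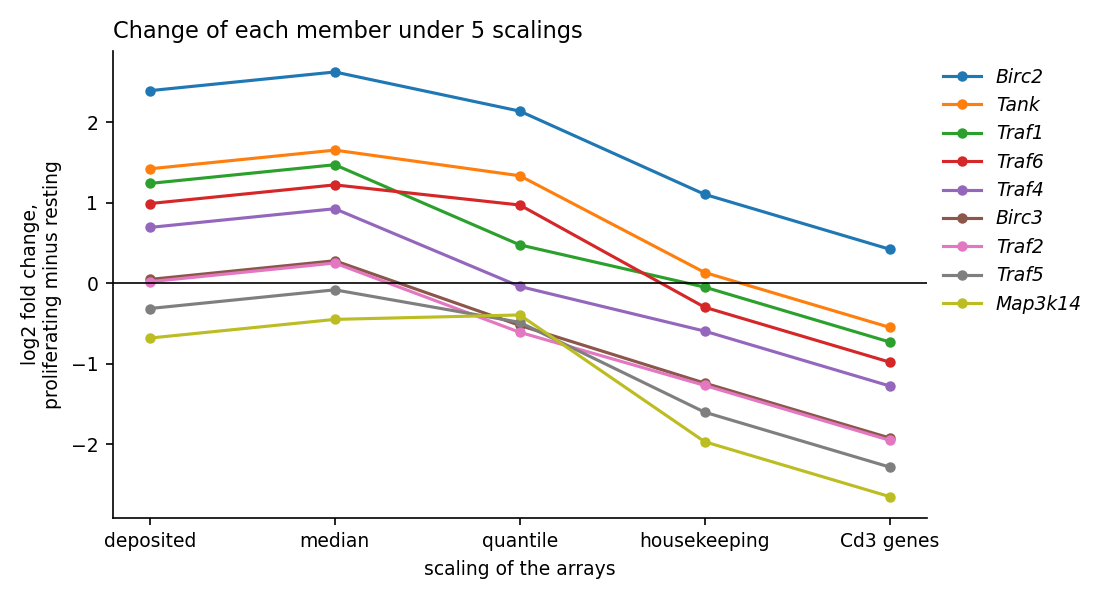
Log2 fold change of each member, proliferating minus resting Tregs (vertical axis), on the deposited values and under 4 other scalings of the arrays (horizontal axis). Lines join the values of 1 gene. Birc2 is above 0 under all 5 scalings, and Map3k14 and Traf5 are below 0 under all 5.

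Genes around the members were grouped by role, and their counts on the deposited scale are to be read against 25.6% of all genes higher and 34.5% lower. Centring moved these lists too. With arrays centred on housekeeping genes, 3 of 14 receptors, 0 of 14 ubiquitin editors and 1 of 7 NF-κB subunits and inhibitors were higher. In these lists 10, 9 and 6 genes were lower. Of all genes, 5.17% were higher and 86.3% lower under this centring. Under Cd3 centring 3, 0 and 0 genes of these lists were higher, against 1.48% of all genes. Of 14 receptors that recruit TRAFs, 6 were higher and 3 lower. Tnfrsf4, which encodes OX40, was at 11.33 and 11.40 in proliferating Tregs, against 7.81 and 7.68 in resting Tregs (log2 fold change 3.62, 12.3-fold). Tnfrsf9, which encodes 4-1BB, was at 9.03 and 9.17 in proliferating Tregs and 6.29 and 6.01 in resting Tregs (2.95), and Tnfrsf18, which encodes GITR, had a change of 2.80. The fitted change of each was above that of Birc2, a difference that was not tested. The 95% intervals of Tnfrsf9 (2.60 to 3.29) and Tnfrsf18 (2.51 to 3.09) overlapped that of Birc2 (2.08 to 2.70). That of Tnfrsf4 (3.32 to 3.92) did not. Tnfrsf9 lay under the low-level limit on both resting arrays. The lower receptors were Tnfrsf13c (-1.16), Tnfrsf17 (-0.50) and Tnfrsf19 (-0.67). Tnfrsf17 lay under the low-level limit on every array, and Tnfrsf19 on every array but resting replicate 1. Tnfrsf13c and Tnfrsf17 encode receptors of B-cells for BAFF and APRIL. Tnfrsf13b, another receptor of this kind, was at 7.10 and 7.39 in proliferating Tregs and 6.71 and 6.97 in resting Tregs and did not pass (0.41, limma adjusted p = 0.0591).

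The list of death domain adaptors and RIP kinases also held the receptor gene Tnfrsf1a, Casp8 and Cflar. Of its 6 measured genes 4 were higher and none lower. They included Casp8, the initiator caspase of death receptors (2.83-fold), and Ripk3, the kinase of necroptosis (2.25-fold). Of 14 ubiquitin editors, which add, remove or read the chains that TRAFs and cIAPs build, 10 were higher and 0 lower, with a median of 0.85, beside 0.90 for the housekeeping genes. The largest were the deubiquitinases Otub1 (1.42) and Otulin (1.41), while Tnfaip3, which encodes the NF-κB inhibitor A20, changed by 0.41. In the next step, 2 of 6 genes of the TAK1 and IκB kinase complexes were higher, Tab2 (1.07) and Map3k7 (0.55), and Ikbkb, the catalytic subunit of the canonical IκB kinase, was at 7.72 and 8.01 in proliferating Tregs and 7.81 and 7.82 in resting Tregs. Of 9 JNK and p38 kinases, 4 were higher and 0 lower, with Map2k3 at 1.01.

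On the deposited scale all 7 measured NF-κB subunits and inhibitors were higher, with a median of 0.88, beside 0.90 for the housekeeping genes. Under quantile normalization 3 of 7 were higher, against 22.1% of all genes. Nfkbia, which encodes IκBα, was at 10.33 and 10.26 in proliferating Tregs, against 8.65 and 8.69 in resting Tregs (1.62, 3.08-fold). The subunits of the non-canonical pathway, Nfkb2 (0.88) and Relb (0.76), and those of the canonical one, Rel (0.93) and Rela (0.77), had changes between 0.76 and 0.93. These are transcript levels, and say nothing of the activity of the proteins.

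In the branch that TANK serves, 3 of 6 genes were higher and 1 lower. Tbk1 was at 7.71 and 7.73 in proliferating Tregs, against 6.94 and 6.86 in resting Tregs (0.82), Irf7 changed by 1.74, and Tbkbp1, another adaptor of TBK1, by -0.91. In the IL-1 and Toll-like receptor branch upstream of TRAF6, 4 of 11 genes were higher and 3 lower. The adaptor Myd88 (0.65) and the kinase Irak1 (0.73) were higher, and Irak3 (-0.79), a brake on this branch, Il1r1 (-0.45) and Il1rap (-0.42) were lower. Irak3 and Il1r1 lay under the low-level limit on every array, and Il1rap on replicate 2 of each group. Of the vomeronasal receptor genes, 19.3% were called lower.

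Of 7 other members of the IAP family, 3 were higher and 2 lower. Birc5, which encodes survivin and serves mitosis, was at 9.32 and 9.12 in proliferating Tregs, against 5.95 and 5.84 in resting Tregs (3.33). Xiap, the strongest caspase inhibitor of the family, was at 6.55 and 6.61 in proliferating Tregs and 6.40 in both resting arrays, and did not pass the test (0.18, limma adjusted p = 0.243). Of 6 IAP antagonists and caspases, 4 were higher and 2 lower. Xaf1, an antagonist of XIAP and a gene induced by interferon, changed by 2.82, Casp6 by 1.45 and Diablo, the mitochondrial antagonist of IAPs, by 0.70, and Septin4 (-0.93) and Casp9 (-0.44) were lower. Of 9 genes listed as other TRAF domain or TRAF-interacting genes 7 were higher and 0 lower, with a median of 0.85. The higher ones include Trap1 (1.06) and Tnfaip8 (0.52), which are not TRAF domain genes.

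**Figure D4:**
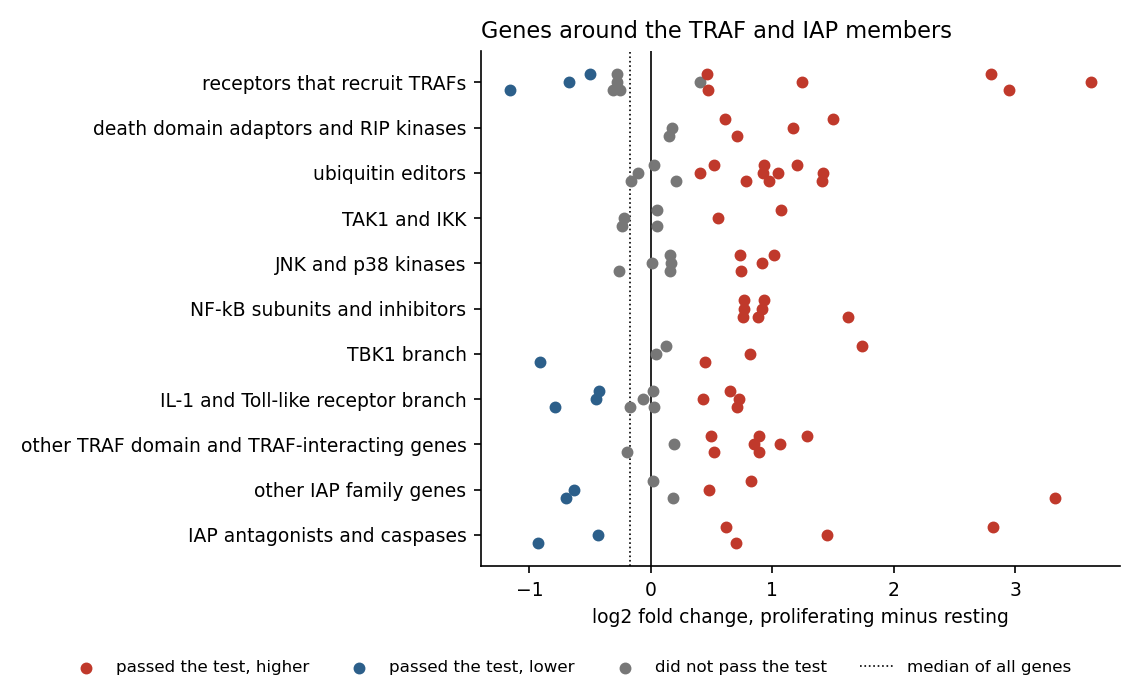
Log2 fold change, proliferating minus resting Tregs (horizontal axis), of each measured gene in 11 lists around the members (rows). Red points passed the test as higher, blue points as lower and grey points did not pass, and vertical offsets within a row only separate points. All 7 NF-κB subunits and inhibitors lie between 0.76 and 1.62, while the receptors spread from -1.16 to 3.62.

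Likeness of pattern was measured as the root mean square difference of centred log2 values over the 4 arrays, which mostly compares the size of the group difference. Among members, the closest pairs were Traf2 with Birc3 (0.0361) and Traf1 with Tank (0.147), and Birc2 lay farthest from its nearest member, Tank (0.488). Among 95 genes of the lists, the nearest to Birc2 was Tnfrsf18 (0.217), to Traf1 Tnfrsf1b (0.0975), which encodes TNFR2, to Tank Casp8 (0.0645) and to Traf6 Rel (0.0347).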

How the data were processed

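RNA of Tregs sorted from co-culture was measured on 4 arrays, 2 of proliferating and 2 of resting Tregs. According to their processing notes, the authors ran RMA in Partek 6.6, and the deposited table holds log2 values. That scale was inferred from the notes and the values' range. The methods name another array design and a normalization to housekeeping genes, and another division dye (Cell Trace Violet) than the labels (CFSE). RMA summarizes the probes of a set, so values of different genes are not comparable. It is meant to equalize arrays, but the deposited arrays were not equal. Their medians over genes were 6.18 and 6.17 in proliferating Tregs and 6.42 and 6.40 in resting Tregs, and their SDs differed. Changes are relative to the scaling.

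Of 41345 probe sets, 23521 had 1 gene name in the platform annotation, 1820 had several and were not used, and 16004 are unnamed here. The probe set of highest mean stood for a gene. Groups were compared with limma 3.58.1 in R 4.3.3 (lmFit and eBayes, 2 residual and 5.48 prior degrees of freedom), proliferating minus resting, and p-values were adjusted by Benjamini-Hochberg over 22180 genes, with a threshold of 0.05. The code was tested on simulated data. Having only 2 arrays per group limits the precision.

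The members, lists and alternatives were chosen with earlier results of these data known. The folds over the low-level limit were added after the values were seen, and set the mean of proliferating Tregs against the mean limit of the resting arrays. All members are named, and up to 3 called genes in each direction per list, with other genes of the lists named for their role after their values were seen. Comparisons with Traf3 could not be run. Promoters are the RefSeq sequences of GRCm38.p6, matched for 9 of 9 measured members. Alternatives were the prior, dim genes left out, other probe set rules, quantile normalization, centring on the median, housekeeping or Cd3 genes, a replicate block, each array left out, the methods' t-test and a minimum change.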

Additional observations from a re-analysis of the deposited data

How the results depend on the processing

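The counts of 5 members higher and 1 lower rested mainly on the scaling. The share of all genes called the same way is given in brackets where it was counted. Higher members numbered 1 with arrays centred on Cd3 genes (1.48%) and 1 centred on housekeeping genes (5.17%). With a log2 fold change of at least 1 they numbered 3 (12.6% of genes were higher by this much, called or not). They numbered 3 under the methods' t-test after Benjamini-Hochberg (12.5%) and 3 under its paired form unadjusted (13.5%). Lower members numbered 8 under Cd3 centring (94.7%), 5 under housekeeping centring (86.3%) and 4 under quantile normalization (23.7%). They numbered 2 under a trended and robust prior (34.5%) and 2 under the methods' t-test unadjusted (22.9%). With a log2 fold change of at least 1 in size they numbered 0 (4.42% of genes were lower by this much, called or not). The paired t-test after Benjamini-Hochberg called 0 higher, 0 lower and 0 member probe sets (against 6), and 0 higher and 2 lower of all genes. Under it, unadjusted, 3000 genes were higher and 2515 lower. Of all calls 42.7% were higher on the deposited values, 64.3% with arrays centred on the median, 5.65% on housekeeping genes and 1.54% on Cd3 genes, and 64.5% under the methods' t-test after Benjamini-Hochberg.

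Signs turned as follows, and the causes were not tested. Under Cd3 centring Birc3 was -1.92, Tank -0.55, Traf1 -0.73, Traf2 -1.95, Traf4 -1.28 and Traf6 -0.98. Under housekeeping centring Birc3 was -1.24, Traf1 -0.0477, Traf2 -1.27, Traf4 -0.59 and Traf6 -0.30. Under quantile normalization Birc3 was -0.52, Traf2 -0.61, Traf4 -0.0393 and the shift of Traf5 minus Traf2 was 0.12. The shift of Birc2 minus Birc3 kept its sign there, at 2.66. Traf2 ranged between -0.0479 (without resting replicate 2) and 0.0873 (without resting replicate 1) with 1 array left out. With each array left out in turn, 4 to 5 members were higher, 1 was lower in each case, and 5 to 6 member probe sets were called. Without a resting array, fewer genes were called lower (3962 without resting replicate 1 and 4428 without resting replicate 2, against 7647), where the spread of the single remaining array was taken from the other group.

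Arrays of the same replicate number showed no shared deviation from their group means (correlation 0.0179). This cannot tell whether they came from the same culture, since array noise could hide a shared effect. A replicate block left 5 members higher and 1 lower. The calls of Traf2, Traf5 and Birc3 depended on the scaling, since all 3 passed as lower under quantile normalization and under housekeeping and Cd3 centring. Of all genes, 23.7%, 86.3% and 94.7% were lower under these scalings.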
